A study of Homo sapiens with 2 samples.

Results

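The genes described are molecular chaperones and their partners in the cytosol, the endoplasmic reticulum (ER) and the mitochondria. They were chosen by name: protein-coding genes of GENCODE 29 whose symbol starts with DNAJ, HSPA, HSPB, HSP90, PDIA or CCT and a digit, together with 15 named genes such as HERPUD1, CANX, P4HB and XBP1. Of 102 symbols that meet this rule, 47 had a value in at least 1 of the 2 libraries, out of 16145 genes with a value in all. Of these 47 members, 43 had a value in both libraries and 33 also had a mean of at least 1 FPKM (fragments scaled to gene length and library total) and were compared. The remaining symbols, among them HSPA5, CALR, HSPA1A and HSPD1, were not analysed here. By the site of the protein, 7 members were placed in the ER lumen, 5 in the ER membrane, 26 in the cytosol or nucleus, 3 in mitochondria and 6 elsewhere.

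The study holds 2 RNA-seq libraries of HAL-01, a human cell line labelled as pre-B acute lymphoblastic leukaemia. In the library labelled AG the cells had received 1,5-AG at 0.8 mM for 24 h, 1,5-AG being a common abbreviation of 1,5-anhydroglucitol, a sugar closely related to glucose. The library labelled Control is its single comparison, and the sources used here do not say how that culture was handled. With 1 library per group there is no replicate, so no test of the treatment was possible and no p-value is given.

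Chaperones bind unfolded stretches of other proteins and let go of them in cycles driven by ATP. Hsp70 proteins do so with J proteins (the DNAJ genes), which bring substrates and trigger ATP hydrolysis, and with exchange factors such as the Hsp110 proteins. Hsp90 proteins act later, on partly folded clients, and the CCT chaperonin is a ring of different subunits that encloses actin, tubulin and other substrates. The ER has its own set, with protein disulfide isomerases that form and shuffle disulfide bonds and lectin chaperones that hold glycoproteins. When unfolded proteins build up in the ER lumen, the unfolded protein response raises genes of ER folding and of ER-associated degradation (ERAD), whereas heat shock factors act on genes of the cytosolic chaperones.

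The library totals worked out from the spacing of the values were 16240451 fragments for Control and 14857372 for AG. Few B cell precursor genes had values: of 11 such genes, 7 had one in Control and 3 in AG, and CD79A, a part of the B cell receptor, was low at 0.275 FPKM in Control against 0.351 in AG. Monocyte and granulocyte genes were abundant and uneven between the libraries: 6 of 10 had a value in both, with a summed level of 939 FPKM in Control against 481 in AG. CTSG, a granule protease, carried this difference, at 743 FPKM in Control against 194 in AG. LYZ, S100A9 and ITGAM were higher in AG, S100A9 at 66.3 against 131 and ITGAM at 1.55 against 8.295. Of 6 plasma cell genes, which would mark secretory cells rich in ER, 2 had a value in both, and the highest, PRDM1, had 0.648 and 0.848 FPKM. No marker was listed at 0, and SDC1, JCHAIN, CD14 and PAX5 were among those not analysed here. These genes thus do not bear out the lineage label, and their part in the results on chaperones was not tested. In bulk samples, fewer cells of a type and less RNA per cell cannot be told apart.

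By FPKM the cytosolic chaperones HSPA8, HSP90AA1 and DNAJA1 were the most abundant members, in that order in both libraries. HSPA8, the constitutive cytosolic Hsp70, had 700 FPKM in Control against 722 in AG. HSP90AA1, the inducible cytosolic Hsp90, had 431 and 466 FPKM. These 2 genes held 48.0% of the summed FPKM of all members in Control and 48.2% in AG. DNAJA1, a J protein that works with HSPA8, followed at 170 and 161 FPKM. The 3 CCT subunits above 1 FPKM lay close together, as CCT5 at 158 and 159, CCT7 at 145 and 139 and CCT8 at 116 and 112 FPKM, and the highest was 1.36 times the lowest in Control and 1.41 times in AG. In the ER, P4HB, a disulfide isomerase, had 95.8 and 98.4 FPKM, PDIA4, another, had 73.3 and 95.3, and HSP90B1, the Hsp90 of the ER lumen, had 60.5 and 76.4.

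**Figure D1:**
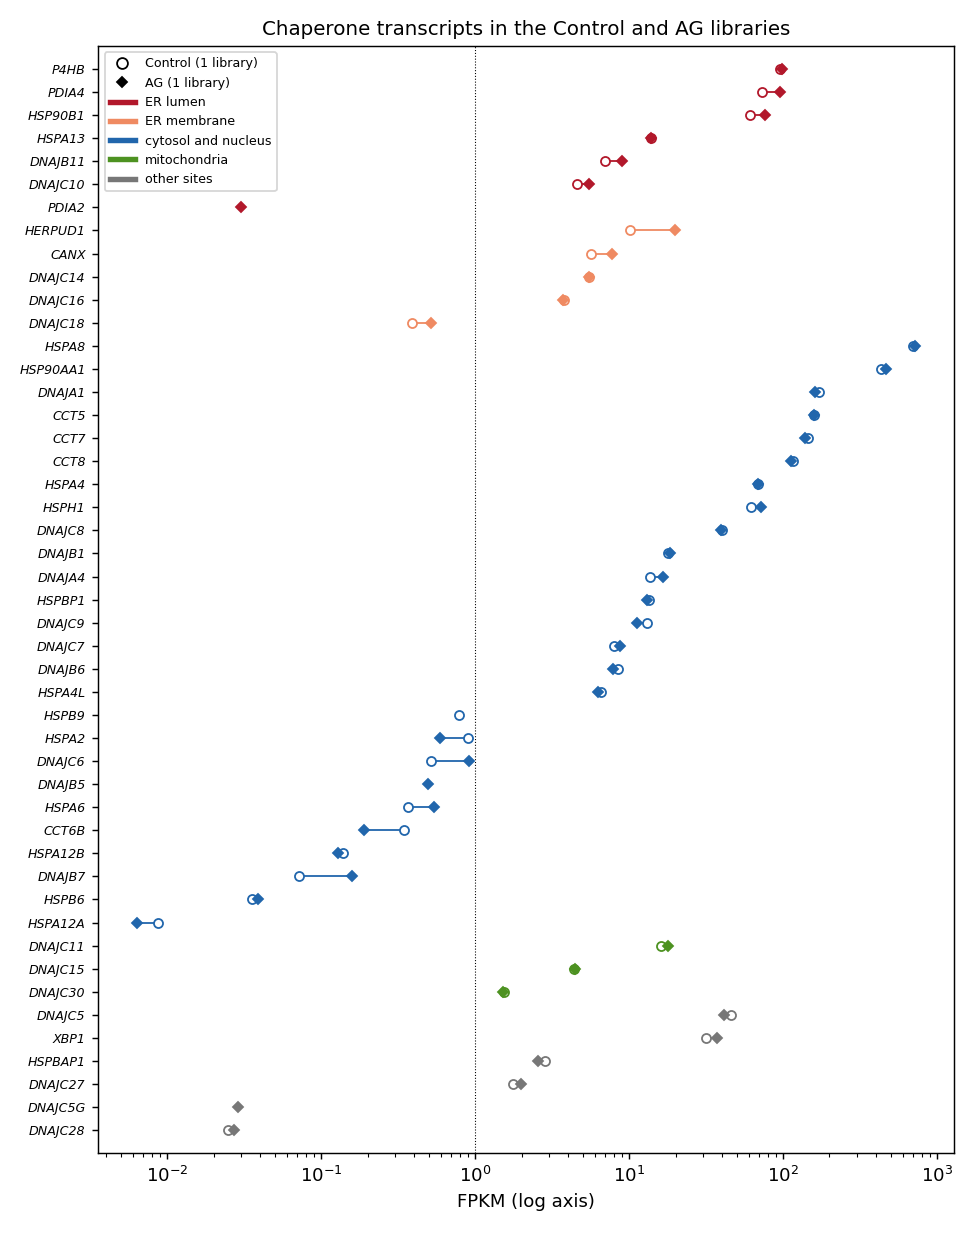
FPKM of the 47 members in Control (open circles) and AG (filled diamonds), 1 library each, on a log axis, grouped by the site of the protein and ordered by level, with a dotted line at 1 FPKM. HSPA8 and HSP90AA1 lie furthest right, between 431 and 722 FPKM, and the markers of most members nearly overlap, with a visible gap for HERPUD1 at 10.2 and 19.7 FPKM.

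The levels depend on the gene length that the authors used. For 10 of the 33 members the length implied by the deposited values was at least 2 times that of the coding transcript in GENCODE 29, and the median was 1.54 times. A coding transcript is only part of the exons of a gene. For 9 of the 33 the implied length matched all annotated exons of the gene together, as for HSPA8 at 4849 bases. The implied length was 13092 bases for HSP90B1, whose coding transcript has 2858 and whose annotated exons together have 4695. It was 13764 for CANX, whose coding transcript has 4260 and whose annotated exons together have 6235. With the length of the coding transcript in place of the implied length, a scale chosen after seeing the data, the level of HSP90B1 came to 277 in Control and 350 in AG, below HSPA8 and HSP90AA1 and above all other members. DNAJA1, at 190 in Control and 181 in AG on this scale, lay below CCT7, CCT5, P4HB and CCT8 as well. The HSP90AA1 level was 7.13 times that of HSP90B1 in Control by FPKM and 2.26 times on this scale, and 6.10 and 1.93 times in AG. The ratio of AG to Control is not touched by the length, since the same length serves both libraries.

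Most of the 33 members compared differed little between the libraries, and the 5 that differed most were ER proteins, all higher in AG. A member was counted as higher or lower from a 1.5-fold difference on the scale log2((AG FPKM + 1)/(Control FPKM + 1)), which understates the change of low genes. Of the 33 members compared, 1 was at least 1.5-fold higher, HERPUD1, and 0 were lower, against 3.6% and 3.33% of the 5528 genes compared and 2.45% and 1.33% of the 4442 protein-coding ones. A count of 1 in 33 is close to these shares. At a threshold of 25% higher, or lower by the same fold, 5 members were higher and 0 were lower, against 8.7% and 9.8% of all genes and 6.44% and 6.44% of protein-coding ones. These 5 were HERPUD1, CANX, PDIA4, HSP90B1 and DNAJB11, and each acts in the ER. The median log2 ratio was 0.02 over the members and -0.03 over all genes compared, and 18 members were above 0, against 43.2% of all genes and 43.1% of protein-coding ones.

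**Figure D2:**
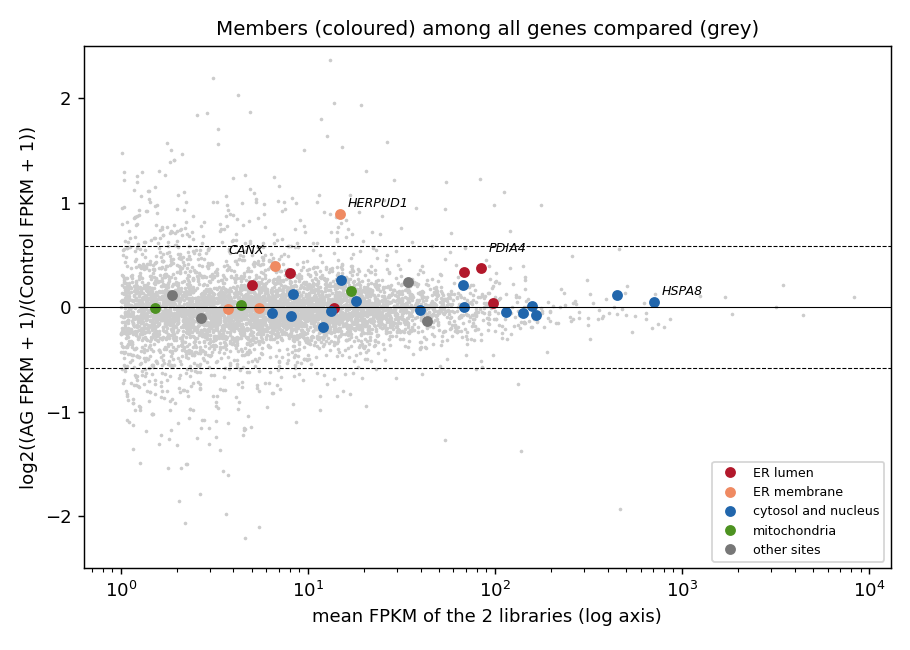
Difference between the libraries, as log2((AG FPKM + 1)/(Control FPKM + 1)), against mean FPKM (log axis) for the 5528 genes compared (grey) and the 33 members (coloured by site), with dashed lines at 1.5-fold. HERPUD1 is the single member beyond a dashed line, and the most abundant members lie close to 0. The axis ends leave out 2 grey points.

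Of the 6 ER lumen members compared, none passed 1.5-fold and 3 were at least 25% higher in AG, against 8.7% of all genes compared. The counting interval of the ratio lay above 1 for 4 and below 1 for 0. The shares were 16.8% and 23.0% of the genes compared with recovered fragments. The median log2 ratio of the 6 members was 0.27, and 5 were above 0, against 43.2% of all genes compared. PDIA4, a disulfide isomerase of the ER lumen, had a ratio of AG to Control FPKM of 1.30 (95% counting interval 1.246 to 1.36), from 3927 fragments in Control and 4672 in AG. HSP90B1 had a ratio of 1.26 (1.23 to 1.29), from 12859 and 14856 fragments. DNAJB11, a J protein that partners the Hsp70 of the ER, had 7.001 and 9.04 FPKM, a ratio of 1.29 (1.19 to 1.402). These 3 were higher by similar proportions although their levels differ widely. DNAJC10, a J protein that also reduces disulfide bonds, had 4.57 and 5.45 FPKM, a ratio of 1.19 (1.12 to 1.27). P4HB, in contrast, had a ratio of 1.03 (0.996 to 1.06). HSPA13, an Hsp70-like protein of the ER, had 13.8 and 13.8 FPKM, a ratio of 0.995 (0.905 to 1.09). The summed level of the 6 genes was 255 FPKM in Control against 298 in AG. The intervals are exact Clopper-Pearson intervals on the fragments. Counting error is all they cover: the spread between cultures is not in them, and they were not adjusted for the number of genes.

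The ER membrane members split into a pair that was higher and a pair that was level. HERPUD1, a membrane protein that organises the ERAD machinery, had 10.2 FPKM in Control against 19.7 in AG, a ratio of 1.94 (1.78 to 2.11), at percentile 98.4 of all genes compared. CANX, calnexin, the membrane-bound lectin chaperone, had 5.64 and 7.71 FPKM, a ratio of 1.37 (1.27 to 1.47). The level pair were J proteins: DNAJC14 had 5.496 and 5.46 FPKM and DNAJC16 had 3.75 and 3.70, with ratios of 0.994 (0.855 to 1.15) and 0.988 (0.871 to 1.12). Over the 10 ER members of lumen and membrane together, the counting interval lay above 1 for 6 and below 1 for 0. Among the genes compared with recovered fragments the shares were 16.8% and 23.0%, and among the protein-coding ones 19.6% and 25.9%. For the 16 cytosolic and nuclear members compared, the counts were 5 and 4. An interval narrows as fragments increase, so these counts depend on depth as well as on the ratio. XBP1, the transcription factor that the unfolded protein response activates by splicing its mRNA, had 31.4 and 37.2 FPKM, a ratio of 1.18 (1.10 to 1.27). Values per gene do not tell its spliced from its unspliced form.

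The promoters were searched because several ER members were higher together, and the matches are shown so that the stress elements of ER and cytosolic genes can be set side by side. RefSeq windows of GRCh38.p14 from 250 bases before to 50 after a start were at hand for 46 of the 47 members. Transcription factors of the unfolded protein response are known to act through the ER stress element (ERSE, here CCAAT, 9 bases of any kind, then CCACG) and its short form (ERSE-II, here ATTGG, 1 base of any kind, then CCACG). Heat shock factors act through the heat shock element (HSE), here GAA, TTC and GAA with 2 bases of any kind between each. Both strands were searched, and no 2 of these matches overlapped. ERSE was found in 0.0769% of all 35116 windows, ERSE-II in 0.0541% and HSE in 0.49%. Counted by gene, as the members are below, the shares of the 3683 genes compared that had a window were 0.217%, 0.163% and 0.407%. Among the members, ERSE was found in CANX, HSP90B1 and XBP1, and ERSE-II in HERPUD1. In the sequences, which run 5′ to 3′ on the strand of the gene, capitals mark the match.
HERPUD1 ERSE-II, chr16:56932005-56932055, plus strand: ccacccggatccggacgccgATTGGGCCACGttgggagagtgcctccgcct
HSP90B1 ERSE, chr12:103930196-103930254, plus strand: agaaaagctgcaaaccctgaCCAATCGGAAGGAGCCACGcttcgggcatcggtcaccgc
HSP90B1 ERSE on the other strand, chr12:103930301-103930359, plus strand: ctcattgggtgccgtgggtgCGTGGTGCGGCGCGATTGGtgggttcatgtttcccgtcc
XBP1 ERSE, chr22:28800583-28800641, minus strand: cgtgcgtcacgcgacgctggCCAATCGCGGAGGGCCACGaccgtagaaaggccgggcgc
CANX ERSE, chr5:179698773-179698801, plus strand: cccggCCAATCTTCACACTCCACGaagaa
The log2 ratios of these 4 genes ran from 0.24 for XBP1 to 0.89 for HERPUD1. Since the search followed from the higher values of ER genes, this describes them and does not test a link.

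HSE was found in 5 members, all of them cytosolic, and the 4 of these that were compared lay on both sides of 0. The matches of the most abundant members, HSPA8 and HSP90AA1, are shown.
HSPA8 HSE on the other strand, near the start, chr11:123062159-123062211, minus strand: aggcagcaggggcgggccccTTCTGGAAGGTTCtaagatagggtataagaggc
HSPA8 HSE further upstream, chr11:123062334-123062386, minus strand: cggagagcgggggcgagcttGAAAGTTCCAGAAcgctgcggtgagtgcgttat
HSP90AA1 HSE on the other strand, chr14:102087100-102087152, minus strand: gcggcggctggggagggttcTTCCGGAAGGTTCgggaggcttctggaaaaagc
The other matches were in DNAJA1, just after its start, in DNAJB6 and in HSPA6. The log2 ratios of the 4 compared genes ran from -0.09 for DNAJB6 to 0.11 for HSP90AA1, with a median of -0.02. PDIA4 and DNAJB11, both higher in AG, held none of these 3 motifs in their windows. The UPRE (TGACGTGG), another element of the unfolded protein response, was found in DNAJC10 alone among the members and in 0.729% of windows. The CRE (TGACGTCA) was found in DNAJC27 alone and in 1.85% of windows. By gene, the shares of the genes compared with a window were 1.22% for the UPRE and 3.86% for the CRE. Of the genes compared, 3683 had a promoter window. Among these 3683, 8 held ERSE, of which 7 had a log2 ratio above 0 (median 0.21), against 43.2% of all genes compared. These 8 include CANX, HSP90B1 and XBP1, whose values were known before the search, and of the other 5 genes 4 were above 0. ERSE-II was held by 6 genes, of which 2, HERPUD1 among them, were above 0 (median -0.12). The value of HERPUD1 was also known before the search. HSE was held by 15 genes, of which 6 were above 0 (median -0.08). A match describes the letters and not a bound site.

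**Figure D3:**
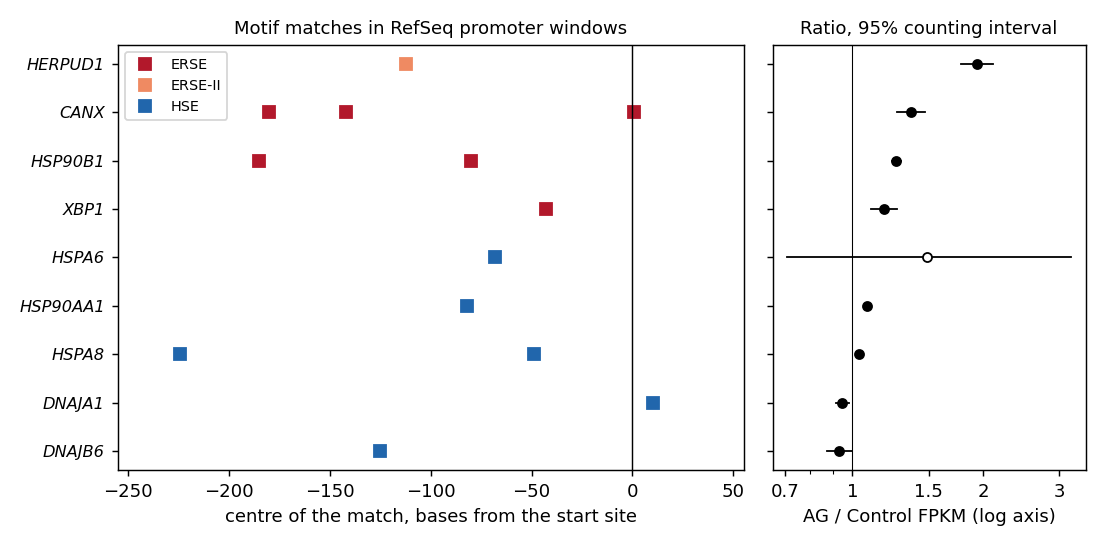
Left, centre of each ERSE, ERSE-II and HSE match in the promoter windows of 9 members, in bases from the start site, all starts of a gene drawn together (the 3 marks of CANX are 1 element seen from 3 starts). Right, AG to Control FPKM ratio of the same genes with its 95% counting interval on a log axis, open for HSPA6, which was under 1 FPKM. The 4 genes with ERSE or ERSE-II lie between 1.18 and 1.94, and the 4 compared genes with HSE lie between 0.933 and 1.08.

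The cytosolic and nuclear members showed no common difference. None of the 16 compared was 25% higher or lower by the same fold, 7 were above 0 and 9 below, and the median log2 ratio was -0.01 (0.02 when the libraries were scaled by the median of ratios). Among the Hsp70 and Hsp110 proteins, HSPA8 had a ratio of 1.03 (1.02 to 1.04), HSPA4, an Hsp110-type exchange factor, had 68.3 FPKM in Control against 68.2 in AG, and its relative HSPA4L had 6.56 and 6.28. HSPH1, the Hsp110 that heat induces, stood out of this family at 62.1 and 72.2 FPKM, a ratio of 1.16 (1.13 to 1.20). HSP90AA1 had a ratio of 1.08 (1.07 to 1.10). The deep coverage of these abundant genes makes their counting intervals narrow, and a shift of that size between cultures cannot be told from culture spread with 1 library each. HSPBP1, which releases nucleotide from Hsp70, had 13.5 and 13.1 FPKM.

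The cytosolic J proteins went both ways by small amounts. Among those compared, DNAJA4 had the highest ratio, with 13.6 FPKM in Control against 16.5 in AG, a ratio of 1.21 (1.13 to 1.30). DNAJC7, a J protein that binds both Hsp70 and Hsp90, had 7.97 and 8.78 FPKM, a ratio of 1.10 (1.03 to 1.18). DNAJB1, the J protein most often used as a marker of the heat shock response, had 17.7 and 18.5 FPKM, a ratio of 1.04 (0.982 to 1.10). On the lower side, DNAJC9, a histone chaperone of the nucleus, had 13.0 and 11.2 FPKM, a ratio of 0.866 (0.772 to 0.971). DNAJA1 had a ratio of 0.948 (0.917 to 0.981) and DNAJB6, which holds back aggregation, had 8.43 and 7.86 FPKM, a ratio of 0.933 (0.875 to 0.995). DNAJC8, a splicing-associated J protein, had 40.1 and 39.4 FPKM. The CCT subunits stayed together, with ratios of 1.01 (0.983 to 1.03) for CCT5, 0.964 (0.934 to 0.995) for CCT7 and 0.968 (0.934 to 1.004) for CCT8.

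The mitochondrial members compared were 3 J proteins, with a median log2 ratio of 0.02. DNAJC11, a protein of the cristae-organising complex, had 16.1 FPKM in Control against 18.0 in AG, a ratio of 1.12 (1.04 to 1.21). DNAJC15, of the inner membrane, had 4.35 and 4.43, a ratio of 1.02 (0.901 to 1.15). DNAJC30 had 1.53 and 1.51 on 63 and 57 fragments, a ratio of 0.989 (0.679 to 1.44). The matrix Hsp70 HSPA9 and the chaperonin HSPD1 with HSPE1, the main folding machinery of the matrix, were not analysed here, so these values speak for few members. Of the members placed elsewhere, DNAJC5, a J protein of secretory vesicles, had 45.5 and 41.3 FPKM, a ratio of 0.908 (0.867 to 0.951), HSPBAP1, a partner of a small heat shock protein, had 2.83 and 2.57, a ratio of 0.909 (0.753 to 1.10), and DNAJC27, a small GTPase with a J domain, had 1.75 and 1.99.

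**Figure D4:**
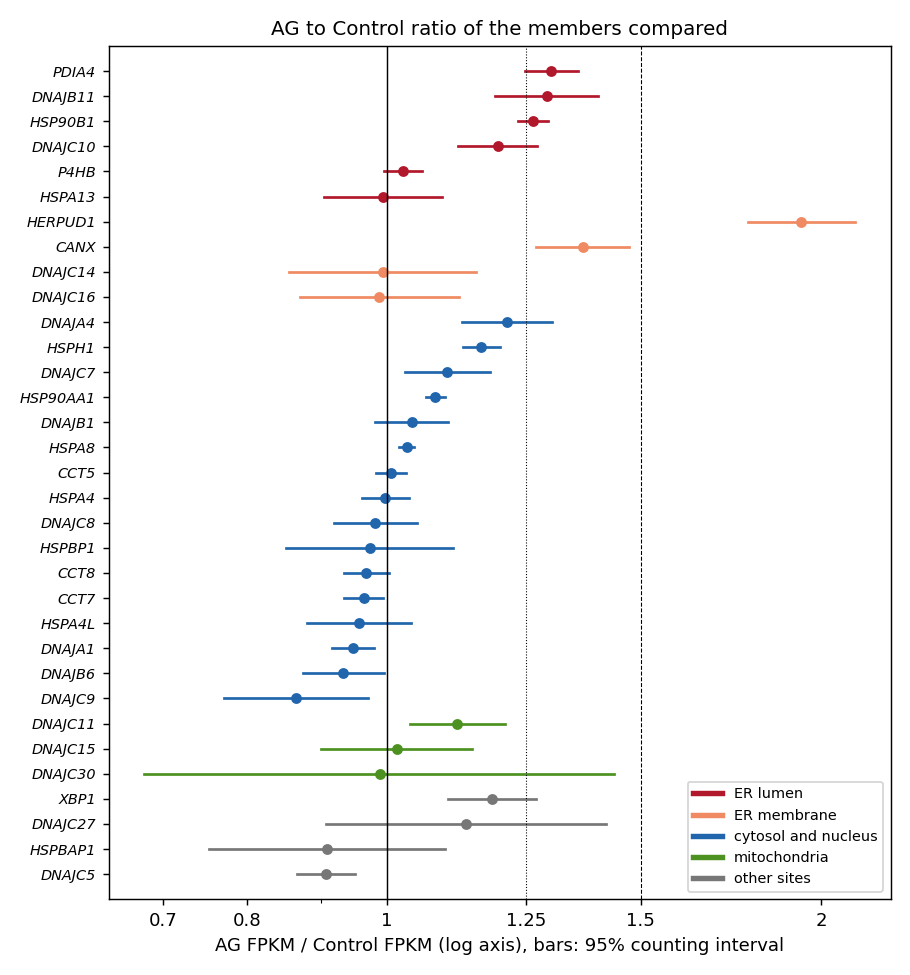
Ratio of AG to Control FPKM (log axis) of the 33 members compared, with 95% counting intervals as bars, grouped by site, and lines at 1, at 25% higher (dotted) and at 1.5 (dashed). The points beyond the dotted line are the ER genes HERPUD1, CANX, PDIA4, DNAJB11 and HSP90B1.

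By compartment, the median log2 ratio of the ER lumen members exceeded that of the cytosolic and nuclear members by 0.28 and that of the mitochondrial members by 0.25. With every member placed at the end of its counting interval that narrows or widens the gap, the first difference ran from 0.12 to 0.41 and the second from -0.08 to 0.45, so the second includes 0. Without members that have near-identical copies, the first ran from -0.01 to 0.35. No test of these differences was made, since genes are not replicates of a condition. With ER lumen and membrane together the difference from the cytosol was also 0.28, from 10 genes against 16. J proteins were present at each site: DNAJB11 and DNAJC10 of the ER lumen had log2 ratios of 0.33 and 0.21, DNAJC14 and DNAJC16 of the ER membrane both had -0.01, and the 16 J proteins compared had a median of 0.01. Of the 2 Hsp90 genes, the ER form had 0.33 and the cytosolic form 0.11.

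Genes of the same pathways outside the chaperone families were taken from lists of sensors, ERAD, ER folding, heat shock and mitochondrial quality control genes. Of 6 sensors and transcription factors of the unfolded protein response, 2 were at least 1.5-fold higher and 0 lower, with a median log2 ratio of 0.17, against 3.6% and 3.33% of all genes compared. ATF6B, a relative of the ER stress sensor ATF6, had 2.39 FPKM in Control against 5.29 in AG, a ratio of 2.21 (1.80 to 2.72). CREB3L2, a transcription factor of secretory capacity, had 12.9 and 21.6, a ratio of 1.67 (1.58 to 1.78). PPP1R15B, which helps dephosphorylate eIF2 alpha, was the most abundant of this list at 46.2 and 50.4. Of the 6 genes, 4 were above 0 and 2 below, against 43.2% of all genes compared above 0. On the scale with 1 FPKM added, the other lists had 0 genes past 1.5-fold in either direction. At the threshold of 25% higher, 1 of 15 ER folding genes, 0 of 11 ERAD genes, 1 of 19 heat shock genes and 2 of 10 mitochondrial genes were higher, against 8.7% of all genes compared, and 0 were lower. The ER folding gene was UGGT2, at 1.31 FPKM in Control and 2.02 in AG. Its plain FPKM ratio was 1.54 (1.27 to 1.89). In the other direction, PFDN6 of the heat shock list had 2.38 FPKM in Control and 1.76 in AG. It was not 25% lower by the same fold on the scale with 1 FPKM added, but its plain ratio was 0.738 (0.546 to 0.994). The 11 ERAD genes had a median of 0.06, with EDEM3 the most abundant at 37.2 and 39.1 FPKM. The 15 genes of ER folding, translocation and glycosylation had a median of 0.10, and 11 of them were above 0, against 43.2% of all genes compared. The counting interval lay above 1 for 8 of them and below 1 for 3, against 16.8% and 23.0% of the genes compared with recovered fragments. Among the 3 below was PRKCSH, a glucosidase subunit, with a ratio of 0.848 (0.813 to 0.885). RPN1, an oligosaccharyltransferase subunit and the most abundant of the 15 by the mean, had 96.3 and 103 FPKM.

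The heat shock and cytosolic co-chaperone list had a median log2 ratio of -0.05 over 19 genes, of which 13 were below 0, against 3142 of the 5528 genes compared. BAG3, a nucleotide exchange factor of Hsp70 that heat shock factors induce, was the one past 25% on the scale with 1 FPKM added. Its FPKM ratio was 1.33 (1.19 to 1.49). It was named after its value was seen, as were UGGT2, PFDN6, PRKCSH, GRPEL1 and TRAP1. PFDN2, a prefoldin subunit that hands substrates to CCT, was the most abundant gene of this list at 118 and 115 FPKM. The 10 mitochondrial quality control genes had a median of 0.07 and 9 were above 0, against 43.2% of all genes compared. GRPEL1, an exchange factor of the matrix Hsp70, and TRAP1, the mitochondrial Hsp90, both had a ratio of 1.28. PHB2 was the most abundant at 46.8 and 47.8 FPKM. The medians of the 3 ER lists and of the mitochondrial list lay above that of all genes compared, -0.03, and that of the heat shock list just below it. Several of these lists had few genes analysed, such as 6 of 14 for the first.

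**Figure D5:**
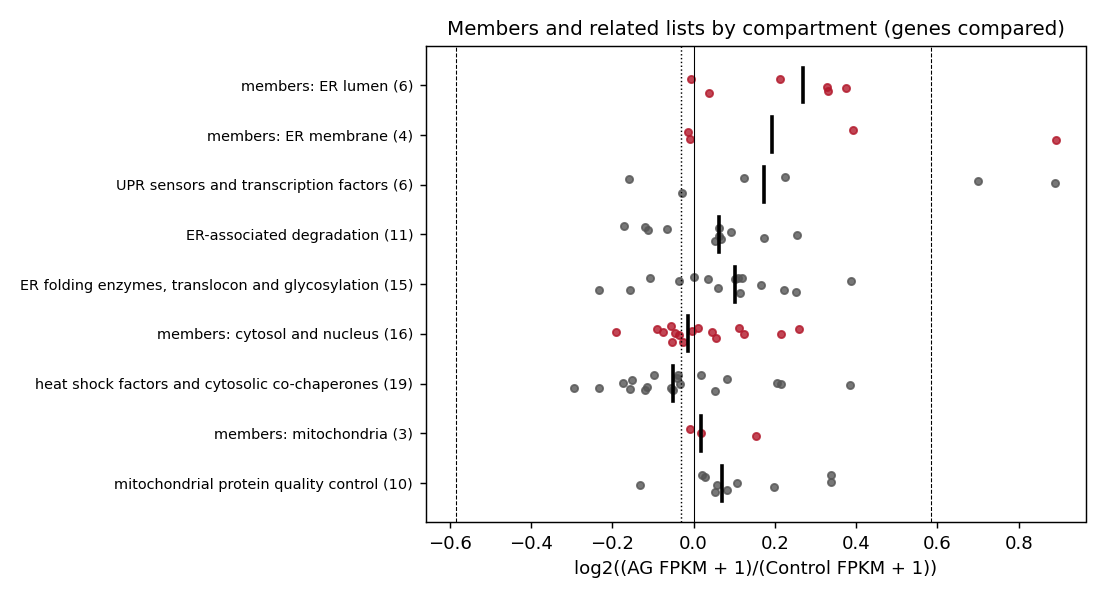
Log2((AG FPKM + 1)/(Control FPKM + 1)) of the members by compartment (red) and of the related lists (grey), 1 point per gene compared, spread vertically at random, with the number of genes in brackets. Black bars are medians, the dotted line is the median of all genes compared (-0.03) and dashed lines mark 1.5-fold. The ER lumen bar is furthest right at 0.27, and the points beyond the dashed line are HERPUD1, ATF6B and CREB3L2.

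The other members were too low or had a value in 1 library only. The 10 under 1 FPKM with a value in both libraries were HSPA2, HSPA6, HSPA12A, HSPA12B, HSPB6, CCT6B, DNAJB7, DNAJC6, DNAJC18 and DNAJC28. Most rested on few fragments, such as 1 and 1 for HSPB6. HSPA6, an Hsp70 that is nearly silent without heat or other proteotoxic stress, had 0.366 FPKM in Control against 0.543 in AG, on 14 and 19 fragments, a ratio of 1.48 (0.705 to 3.20), and its reads can be shared with the copy HSPA7. DNAJC6, auxilin, which uncoats clathrin vesicles, had 0.513 and 0.909 FPKM, a ratio of 1.77 (1.26 to 2.502). HSPA2, an Hsp70 best known from the testis, had 0.895 and 0.587, a ratio of 0.656 (0.454 to 0.939). The intervals of these 2 genes exclude 1, and those of the other 8 include it. HSPB9 had a value in Control only, 0.785 FPKM, and DNAJB5, PDIA2 and DNAJC5G had one in AG only, 0.491, 0.0301 and 0.0288 FPKM. A missing value was not read as 0.

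In GRCh38 coordinates of GENCODE 29, HERPUD1 (ENSG00000051108) lies on chromosome 16 at 56932048 to 56944863, CANX (ENSG00000127022) on chromosome 5 at 179678628 to 179730925, HSP90B1 (ENSG00000166598) on chromosome 12 at 103930107 to 103953645 and DNAJB11 (ENSG00000090520) on chromosome 3 at 186567403 to 186585800, all on the plus strand. On the minus strand, PDIA4 (ENSG00000155660) spans 149003062 to 149028641 of chromosome 7. HSP90B1 has 2 near-identical copies in the annotation, HSP90B2P and HSP90B3P, and 23.2% of the exonic bases of DNAJB11 are shared with other genes, mostly on the opposite strand. HERPUD1 and PDIA4 have neither a copy nor such overlap, and CANX shares 2.4%. Near-identical copies were found for 11 of the 47 members, HSPA8, HSP90AA1, CCT5 and CCT8 among them, and their values are uncertain to that extent.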

How the data were processed

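The authors deposited FPKM per gene. The submitters' processing notes name Trimmomatic, HISAT2, Cufflinks and HTSeq, with hg38 as the build and no versions. Per the labels, the kit was stranded. The sources used here do not give the annotation release, the strand setting of the counting or any filter, so reads of overlapping and antisense genes cannot be told apart.

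Members were matched by Ensembl ID to GENCODE 29. Members, compartments and lists were chosen with earlier results of these data known. Genes with a value in both libraries and a mean of at least 1 FPKM were compared as log2((AG FPKM + 1)/(Control FPKM + 1)).

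Library totals were chosen so that FPKM times exon length became whole fragments (tolerance 0.01) for single-transcript genes, which held for 88.4% of 5315 in Control and 88.1% of 5259 in AG. Fragment pairs, with a whole implied length, were recovered for 99.4% of genes compared and all 33 members. Where several pairs matched, the one nearest the annotated length was taken. Fragments are not independent molecules.

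Any member could be named. Full values were due for members 25% higher or lower by the same fold and the 3 most abundant per compartment, and, of the lists, for genes past 1.5-fold and the most abundant one. A near-identical copy was another gene matching at least 300 coding bases at 90% identity (BLAST+ 2.17.0). Recovery of fragments, the intervals and the fold calls were tested on simulated data, with gene lengths at or slightly above the annotated ones. Genes with much longer implied lengths, such as HSP90B1, CANX and DNAJB11, were not covered by this, so their fragment numbers and interval widths are less certain. Software was matplotlib 3.10.9, pandas 2.3.3, scipy 1.17.1 and numpy 2.4.6 under Python 3.11.15.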

Additional observations from a re-analysis of the deposited data

How the results depend on the processing

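The ER lumen median exceeded the cytosolic median by 0.19 to 0.31 and the mitochondrial one by 0.12 to 0.27 over 8 alternatives each (pseudocount, filter on low values, scaling, members with copies left out, ER sites joined). With counting intervals taken to their ends, the mitochondrial difference included 0 in all 8, and the cytosolic one did so without members that have copies (-0.00738 to 0.348). The ER lumen median was 0.177 with a pseudocount of 5 FPKM, and the ER membrane median 0.392 once the minimum mean was raised to 5 FPKM. The cytosolic median was 0.0205 when scaled by the median of ratios, which multiplies AG by 1.025, and this scaling also turned DNAJC14 to 0.0226 and DNAJC30 to 0.0120. Under it the log2 interval of DNAJA1 came to include 0 (-0.0892 to 0.00736) and that of P4HB no longer did (0.0302 to 0.117), which for P4HB also held with a common total (0.00257 to 0.0893). With thresholds of 25% and 2-fold, 5 and 0 members were higher. With a pseudocount of 5 FPKM, 2 of the 5 members remained at least 25% higher, and under the other pseudocount and both scalings all 5 did. The pseudocount of 5 FPKM itself shrinks the log2 ratio of low genes. The other causes were not tested. The level per coding transcript was chosen after seeing the data. The implied gene lengths limit any comparison of levels between genes, and 1 library per group limits every difference. No paired analysis was possible because each group has 1 library.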
